A study of Mus musculus with 4 samples.

Results

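F13a1-positive, Mpo-positive progenitors without Cebpe transcripts were 2563 of the 38887 kept Kit+ cell barcodes, and they are described here as monocyte-committed progenitors. A barcode was kept if it had 1000 UMIs or more (unique molecular identifiers, each counting 1 captured transcript), 500 genes or more, and no more than 10% of its UMIs from mitochondrial genes. A kept barcode was a member if its raw counts were at least 2 for F13a1, at least 5 for Mpo, 0 for Cebpe, under 3 for Fcer1a and under 5 for Cd79a. The control library held 1638 members, the Mll3/4 deleted library 225 and the Mll3/4SI library 700.

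The study profiled mouse bone marrow 10 weeks after transplantation by droplet single-cell RNA sequencing with a 5′ kit. CD45.2+Kit+ cells, which carry the CD45.2 form of the leukocyte antigen CD45 and the receptor Kit, gave 3 libraries: control (library name wt), Mll3/4 deleted (dKO) and Mll3/4SI (dKI). A further library, of control CD45.2+B220lo cells, was outside these comparisons. The labels name neither the number of mice per library, nor the alleles, promoter or agent behind each genotype, and they do not spell out SI. With 1 library per group no difference below has a replicate check, and no p-value is given. Intervals are 95% intervals that cover counting error only. They are exact for shares, levels and ratios of CPM, and a normal approximation for log2 ratios. Both comparisons use the same control library.

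Monocytes arise in the marrow from granulocyte-monocyte progenitors. Before they commit to a lineage, these progenitors transcribe genes of primary granule proteins, among them myeloperoxidase (Mpo), elastase and related proteases. Irf8 favours the monocyte branch, whereas Gfi1 and Cebpe belong to the neutrophil branch, and F13a1, the A subunit of coagulation factor XIII, marks the monocyte side. MLL3 and MLL4, encoded by Kmt2c and Kmt2d, methylate histone H3 at lysine 4 on enhancers. The study's title concerns their part in stem-cell self-renewal and myeloid identity and in opposing B-cell priming, and whether their enzymatic function is needed.

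The libraries differed in ways that bear on all comparisons. Members had medians of 15260 UMIs and 4230.5 genes in control, 18517 and 4545 in deleted, and 17136.5 and 4552 in SI. The members of each library together gave 27126229, 3908769 and 12211577 UMIs, so the deleted values are the least precise. Of all kept deleted barcodes, 90.0% had at least 5 Cd79a UMIs, a B-lineage transcript, against 45 control and 28 SI barcodes. Y-linked transcripts were at 139 CPM (the gene's share of all UMIs of the members, in the usual counts-per-million unit) in deleted members, 0 in control and 0.0819 in SI, and Xist was at 0 in the deleted members, so sex and deletion cannot be told apart. Doublet scores above 0.25 were given to 194 control, 0 deleted and 54 SI members. Between 214 and 254 barcode sequences recurred in each pair of libraries, and 3 of them were members in both control and SI. Whether more recurred than barcodes drawn from a common set would share by chance was not tested. The targeted genes do not check the labels, because a 5′ assay can still count transcripts that lack an exon and the labels do not name the deleted part. Kmt2c was at 57.6 CPM in control, 50.1 in deleted and 64.0 in SI members, and Kmt2d at 25.8, 21.0 and 22.4.

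The members made up a smaller share of both mutant libraries, but the deleted share depended on what it was taken of. Of all kept barcodes, 13.8% (13.2 to 14.4) met the rule in control, 1.51% (1.32 to 1.72) in deleted and 5.79% (5.38 to 6.23) in SI. Among kept barcodes with under 5 Cd79a UMIs, the shares were 13.8%, 15.0% (13.3 to 16.9) and 5.81%. In that denominator the deleted share was no longer below control, with a log2 ratio of 0.12 (-0.065 to 0.31).

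Among Mpo-high cells, with at least 5 Mpo UMIs and the same limits on Fcer1a and Cd79a, the order of the libraries changed. Members were 24.9% of 6568 control cells (23.9 to 26.0), 41.0% of 549 deleted cells (36.8 to 45.2) and 11.1% of 6301 SI cells (10.3 to 11.9). The log2 ratio to control was 0.72 (0.56 to 0.87) in deleted and -1.17 (-1.28 to -1.05) in SI. With every cell thinned to 5000 UMIs, which left out 70 control, 9 deleted and 23 SI members, the shares were 20.2%, 40.2% and 9.35%. On thinned counts 1205 control, 237 deleted and 545 SI cells met the rule, so in deleted, with 225 members at full depth, thinning also admitted cells that had not met it before. The rest of the Mpo-high cells divided between those with a Cebpe UMI, which were 37.6% in control, 35.7% in deleted and 25.4% in SI, and the F13a1-low cells, without Cebpe and with under 2 F13a1 UMIs, which were 37.5%, 23.3% and 63.5%. Members and Cebpe-positive cells thus took smaller shares of the SI Mpo-high cells than of the control ones, and the remaining class a larger share. Set only against Cebpe-positive cells, members were 39.9% of the 2 classes together in control, 53.4% in deleted and 30.4% in SI.

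**Figure D1:**
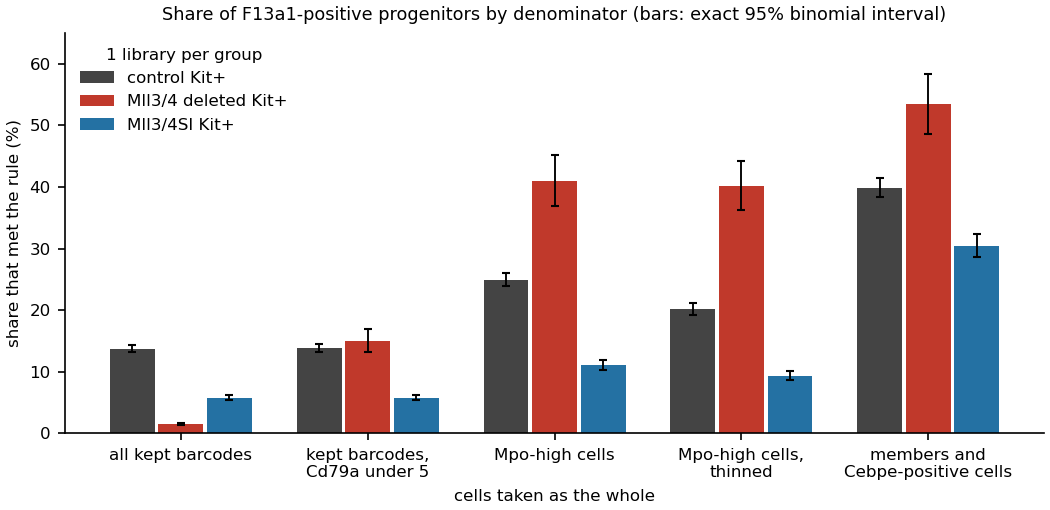
Share of F13a1-positive progenitors (y axis, %) in the 3 Kit+ libraries by the cells taken as the whole (x axis), with exact 95% binomial intervals and 1 library per group. The deleted bar is far below control among all kept barcodes (1.51% against 13.8%) and above it among Mpo-high cells (41.0% against 24.9%), whereas the SI bar is below control in each denominator.

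The genes of the rule are given as a description of the members, since they chose them. F13a1 had a median of 8 UMIs per member in control, 15 in deleted and 6 in SI, and at least 8 UMIs were found in 50.8%, 72% and 46.3% of members. Mpo had medians of 203.5, 298 and 284.5 UMIs, and 88.8%, 95.6% and 91.4% of members had at least 100. Just inside the Mpo limit, at exactly 5 UMIs, were 1, 0 and 3 members, and 4, 1 and 5 cells that met the other conditions were excluded at 4 UMIs. A further 16, 4 and 63 such cells had 0 to 3 Mpo UMIs. More cells lay at the F13a1 limit. Cells that met every other condition had 1 F13a1 UMI in 431 control, 21 deleted and 411 SI cells, and exactly 2 in 248, 15 and 149. A single Cebpe UMI kept out a further 380, 48 and 203 cells. Cd79a was at 0 in 1636 of 1638 control and 699 of 700 SI members but in only 156 of 225 deleted members, which were at 22.0 CPM.

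**Figure D2:**
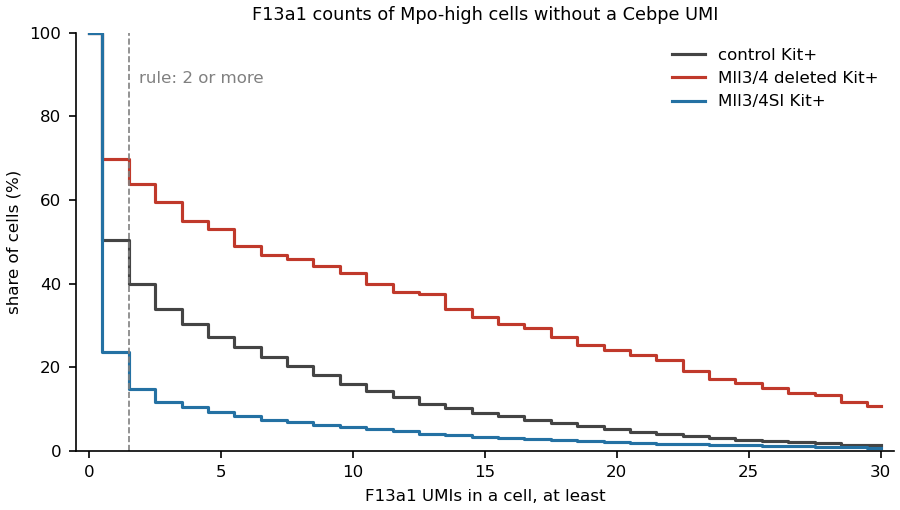
Share of Mpo-high cells without a Cebpe UMI (y axis, %) that had at least the given number of F13a1 UMIs (x axis), for each library; the dashed line marks the rule. At each F13a1 count from 1 upwards the deleted library is highest and SI lowest, and no gap separates members from other cells.

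The members expressed early monocyte markers. Of the 30 genes of the monocyte list, 22 reached a mean of 10 CPM over the 3 libraries, the level required for a gene to be compared. Ly6c2, a surface antigen of classical monocytes, was at 2702 CPM in control, 2747 in deleted and 2648 in SI, and Csf1r, the M-CSF receptor, at 106, 102 and 95.7. Both therefore lay within a narrow range in the 3 libraries. Irf8 was at 307, 337 and 238 CPM, lowest in SI. After thinning, an Irf8 UMI was found in 70.0% of control, 68.5% of deleted and 55.5% of SI members, against 0.641% of control cells with high Klf1, an erythroid transcription factor. Among late monocyte and macrophage markers, Fn1 was at 3.83, 8.19 and 7.94 CPM, Klf4 at 7.37, 8.70 and 3.69 and Cx3cr1 at 9.03, 7.42 and 14.3, with no common order of the libraries.

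Compared with other Mpo-high cells of their own library, members stood higher for monocyte genes, but the rule drew that line, so these counts describe the cells and are no test. Against Cebpe-positive cells, 10 of the 22 monocyte genes were at least 2-fold higher in members in all 3 libraries, where 0.728% of the 8519 compared genes were so. None of the 22 was 2-fold lower, where the share of all compared genes was 0.2%. Irf8 was higher by log2 ratios of 2.02, 2.57 and 1.84 and Csf1r by 1.64, 2.14 and 1.63, while Gfi1, a repressor of monocyte genes, was lower, at -1.20, -1.45 and -1.15. Against F13a1-low cells, 12 of the 22 were higher in all 3 libraries (0.916% of all compared genes), and 6 of 14 stem-cell genes were lower (0.493%). Summed over the monocyte list in thinned cells, the median member had 36 UMIs in control, 33 in deleted and 34 in SI, against 16, 14 and 18 in Cebpe-positive cells and 8, 6 and 10 in F13a1-low cells. Primary granule genes were highest in Cebpe-positive cells, with 138, 155 and 147 UMIs in the median member, 185, 232 and 201 in the median Cebpe-positive cell and 48, 87 and 48 in the median F13a1-low cell.

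The members were not uniform, and most monocyte genes were higher in members with more F13a1, which is a description since F13a1 is part of the rule. Between members with 8 or more and with 2 to 3 F13a1 UMIs, 22 of the 22 monocyte genes were higher by any amount in control, 20 in deleted and 21 in SI, against 4112, 4777 and 4136 of the 8519 compared genes. The size varied, and Emilin2 was at 40.8, 42.8 and 44.2 CPM in the control classes with 2 to 3, 4 to 7 and 8 or more UMIs. In control, Irf8 was at 165 CPM in members with 2 to 3 F13a1 UMIs, 236 in those with 4 to 7 and 395 in those with 8 or more. In SI it was at 143, 202 and 307 CPM, and in deleted at 149, 89.8 and 411. The middle deleted class held 32 cells and broke the order. Csf1r was at 63.1, 86.7 and 133 CPM in the same control classes, 43.6, 49.0 and 121 in deleted and 55.9, 75.7 and 127 in SI. Klf4, a factor of later monocytes, was mostly in the upper class, with 0.85, 2.61 and 12.1 CPM in control. Gfi1 was at 52.9, 37.8 and 28.3 CPM over the control classes, 41.6, 79.6 and 29.5 in deleted and 47.3, 52.9 and 37.9 in SI, highest in the middle class of both mutants. The control classes had median depths of 13829, 14214 and 16268 UMIs, and the part of depth in these orders was not tested. Members with 8 or more F13a1 UMIs were 832 of the control cells, 162 of the deleted and 324 of the SI cells, so the libraries differ in this mixture as well as in level.

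**Figure D3:**
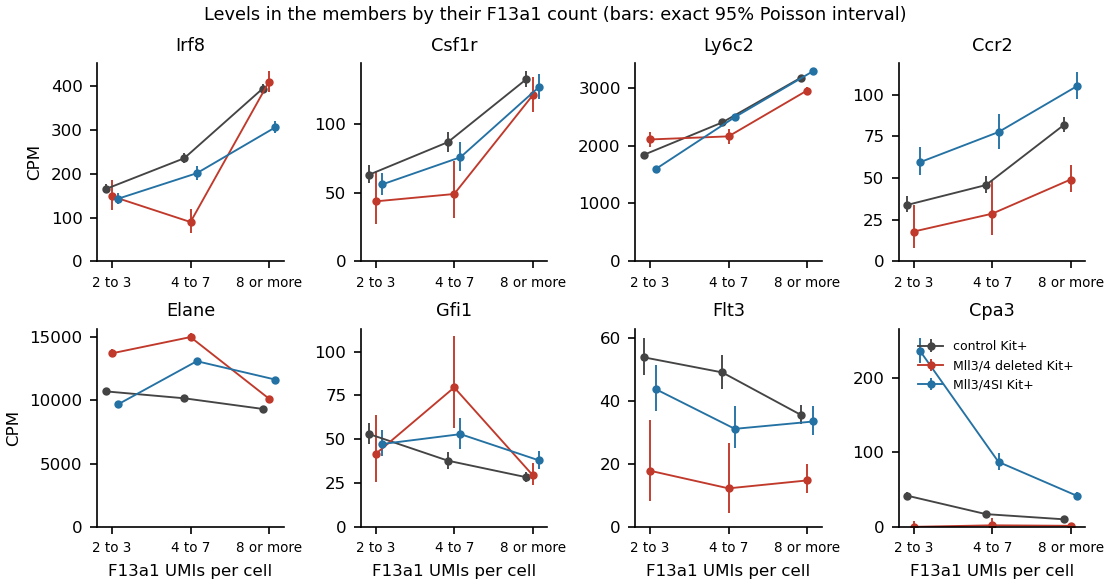
Levels (y axes, CPM, exact 95% Poisson intervals) of 8 genes in members grouped by their F13a1 UMIs (x axes) in each library. Irf8, Csf1r, Ly6c2 and Ccr2 were higher in members with 8 or more F13a1 UMIs than in those with 2 to 3 in all 3 libraries. Cpa3 went from 236 to 41.6 CPM in SI and from 41.7 to 10.0 in control.

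Few genes differed between members of the libraries by 2-fold or more. A gene was counted as higher or lower when its log2 ratio to control, with 1 CPM added to both values, was at least 1 or at most -1. The added CPM understates the ratios of low genes. A gene could reach the level for comparison through 1 library alone. In deleted members 40 of the 8519 compared genes were higher (0.47%) and 99 lower (1.16%). In SI members 48 were higher (0.563%) and 22 lower (0.258%). These shares are the background for the counts of each gene list below. The balance of directions depended on the depth and weighting of the cells. Thinning also changed which cells met the rule, to 1205 control, 237 deleted and 545 SI cells, and lowered the UMIs summed. These parts were not told apart. With cells thinned to 5000 UMIs, 132 were higher and 125 lower in deleted and 70 and 18 in SI, and with each cell's own CPM averaged, 88 and 99 in deleted and 72 and 18 in SI. The median gene moved by 0.157 on the log2 scale in deleted and 0.110 in SI, disregarding sign.

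**Figure D4:**
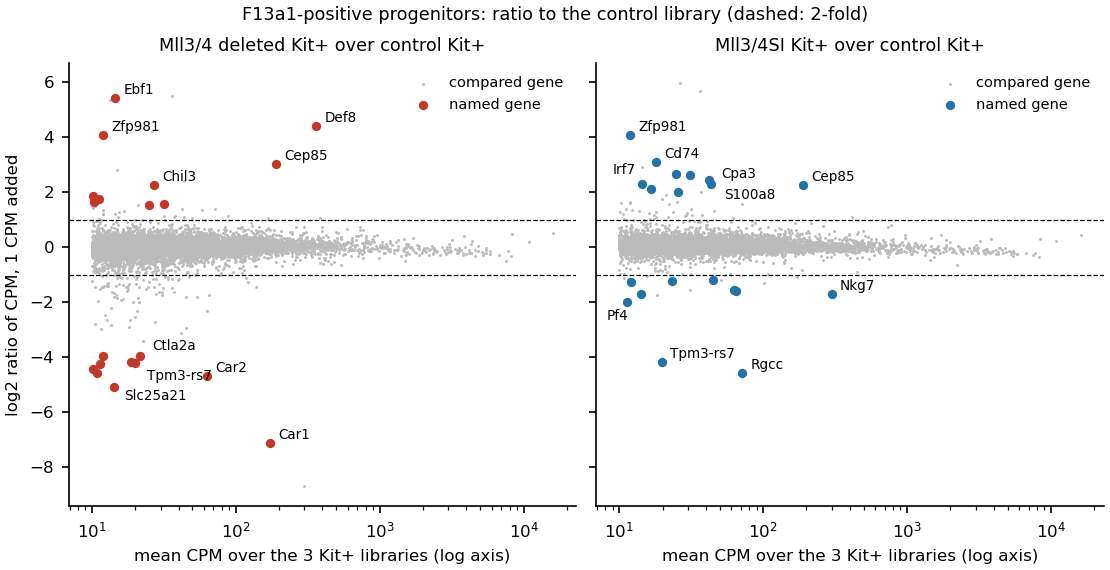
Log2 ratio to control with 1 CPM added (y axis) against the mean CPM of the 3 Kit+ libraries (x axis, log scale) for the 8519 compared genes, deleted left and SI right. Dashed lines mark 2-fold, and filled points are the genes named by a rule of size, from Car1 at -7.13 to Ebf1 at 5.41 in deleted and from Rgcc at -4.57 to Zfp981 at 4.09 in SI.

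Most monocyte genes lay within 2-fold of control in both mutants. In deleted members none of the 22 was higher and 1 was lower, with a list median log2 ratio of -0.25 beside 0.037 for all compared genes. In SI members 1 was higher and none lower, with a median of 0.08 beside 0.047. Without high doublet scores the medians were -0.39 in deleted and -0.062 in SI, so the sign of the SI median depends on those cells. No deleted member had such a score, so the deleted median moved through the control members alone. Emilin2, an extracellular glycoprotein, was the gene below 2-fold in deleted, at 43.1 CPM in control, 14.8 in deleted and 49.6 in SI, a ratio of 0.344 to control (0.26 to 0.448). Several monocyte genes were lower in deleted without passing 2-fold. Mpeg1, a pore-forming protein of macrophages, was at 49.2, 26.1 and 65.02 CPM, and Ctss, a lysosomal protease, at 36.1, 19.96 and 36.5. Ccr2, the receptor that lets monocytes leave the marrow, was at 62.9, 42.5 and 86.3 CPM. For Mpeg1 and Ccr2 the deleted library was lowest and SI highest. Zeb2, a transcription factor of the mononuclear phagocyte lineage, was at 412, 586 and 540 CPM, within 2-fold, and Ms4a6c was at 327, 393 and 460. Within F13a1 classes deleted Ms4a6c was above control only with 8 or more UMIs, at 478 against 416 CPM, and below it with 2 to 3, at 139 against 184, and with 4 to 7, at 151 against 256.

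The monocyte gene past 2-fold in SI was Lyz2, lysozyme, at 318 CPM in control, 243 in deleted and 674 in SI (ratio 2.12, 2.06 to 2.19). It was unevenly spread, with 32.5% of the SI members' Lyz2 UMIs in 10 of the 700 cells. Slpi, a secreted protease inhibitor, was at 585, 451 and 313 CPM, lowest in SI, with a log2 ratio of -0.90. S100a4 did not reach the level for comparison and was at 1.53 CPM in deleted against 10.2 in control and 13.5 in SI.

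**Figure D5:**
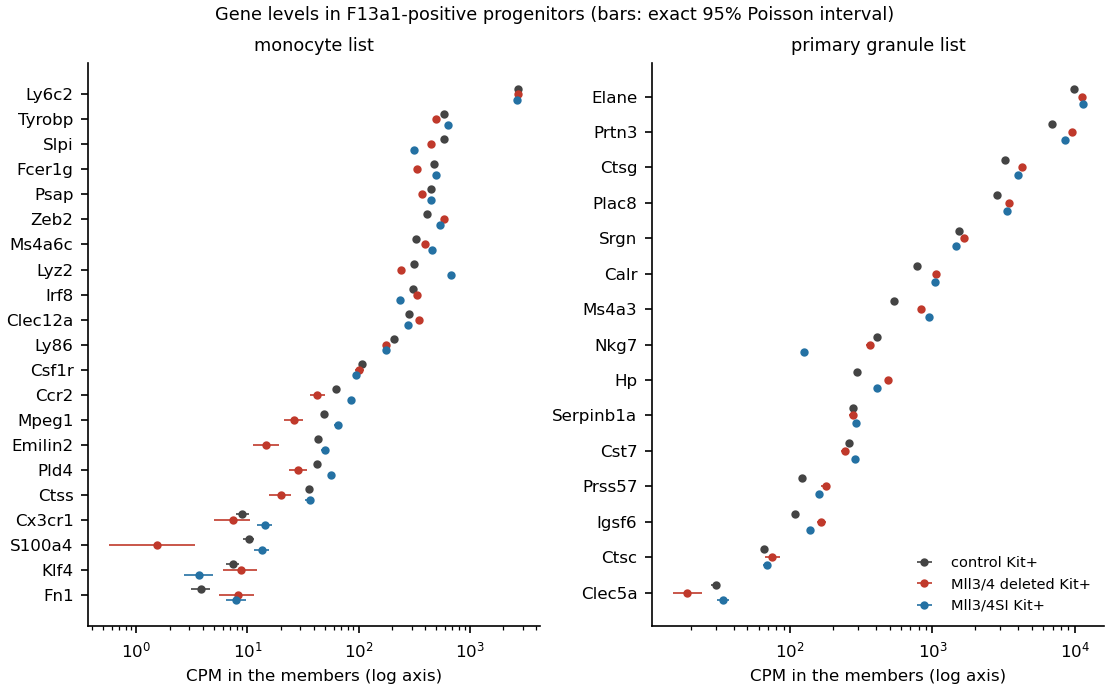
Levels of monocyte (left) and primary granule genes (right) in the members of each library (x axes, CPM, log scale), with exact 95% Poisson intervals. Most genes of both lists lie close together in the 3 libraries, and Emilin2 in deleted (14.8 CPM), Lyz2 in SI (674 CPM) and Nkg7 in SI (125 CPM) stand apart.

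Primary granule genes lay within 2-fold of control in members of both mutants, apart from 1 gene in SI. All 15 were compared. None passed 2-fold in deleted, with a median of 0.28 that was 0.17 without high doublet scores and 0.085 when each cell's own CPM was averaged. In SI 1 was lower and none higher, with a median of 0.23. Elane, neutrophil elastase, was at 9814 CPM in control, 11196 in deleted and 11423 in SI. Prtn3, proteinase 3, was at 6929, 9552 and 8575, and Ctsg, cathepsin G, at 3238, 4250 and 4016. Control was lowest for all 3 proteases. Ms4a3, a membrane protein of granulocyte-monocyte progenitors, was at 540, 828 and 940 CPM. The exception was Nkg7, a cytotoxic and myeloid granule protein, at 408, 362 and 125 CPM, a ratio of 0.307 (0.291 to 0.324) in SI.

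Myeloid transcription factors lay within 2-fold of control. None of the 12 compared passed 2-fold in either mutant, and the medians were 0.15 in deleted and 0.21 in SI. Spi1, which encodes PU.1, was at 272, 305 and 308 CPM, Cebpa at 62.6, 65.5 and 83.2, and Runx1 at 266, 344 and 334. Cebpb, a factor of later myeloid cells, was at 115, 109 and 77.8 CPM, lowest in SI. Irf5, a regulator of inflammatory macrophage genes, came nearest to 2-fold in deleted, at 19.6, 9.72 and 15.7 CPM with a log2 ratio of -0.95.

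Of 18 compared surface and growth-factor receptors, 2 were lower and none higher in deleted, with a median of -0.02, and none passed 2-fold in SI, with a median of 0.27. Flt3, a cytokine receptor of multipotent and dendritic progenitors, was at 42.8, 14.8 and 35.8 CPM, with a ratio of 0.346 (0.261 to 0.451) in deleted. Itgam, the integrin CD11b, was at 14.4, 6.65 and 24.6. Both were lowest in the deleted library. Kit, the receptor used for sorting, was at 176, 200 and 199 CPM, and the GM-CSF and G-CSF receptor genes Csf2ra and Csf3r were at 97.2, 109 and 128 and at 48.7, 46.3 and 59.3.

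Antigen-presentation genes gave 5 compared genes, of which 2 were lower in deleted (median -0.75) and 1 higher in SI (median 0.02). The shares of all compared genes were 1.16% and 0.563%. H2-Ab1, an MHC class II chain, was at 39.0, 17.7 and 39.4 CPM, and Cd74, the invariant chain, at 4.76, 1.28 and 48.2. Cd74 is the gene counted as higher in SI, and it reached the level for comparison through SI alone. It is also counted as lower in deleted, from 5 UMIs there. The SI value of Cd74 was carried by few cells, with 98.0% of its 588 UMIs in 10 members. H2-Aa was likewise at 15.6 CPM in SI from 15 cells. Siglech, a marker of plasmacytoid dendritic cells, was at 0 in all 3 libraries, and the dendritic markers Xcr1 and Clec9a were at most 0.0369 and 0.737 CPM.

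Of 14 compared stem and multipotent genes, 2 were lower in deleted members, where 1.16% of all compared genes were so, and 12 lay within 2-fold. The list median was -0.56 in deleted, beside 0.037 for all compared genes. None passed 2-fold in SI, with a median of 0.09. Gata2, a stem-cell and mast-cell factor, was at 23.9, 8.44 and 21.5 CPM, and Ifitm1 at 153, 63.2 and 149. Angpt1, an angiopoietin, was at 89.6, 47.6 and 148 CPM, within 2-fold but lowest in deleted and highest in SI. The stem-cell antigen Cd34 was at 314, 245 and 353 CPM, and Meis1 at 33.0, 18.9 and 41.8. Flt3, taken by F13a1 class, was at 53.9, 49.1 and 35.6 CPM over the 3 control classes, highest in the cells with few F13a1 UMIs. The deleted library held the smallest part of such cells, 13.8% with 2 to 3 UMIs against 24.2% in control and 30.3% in SI. Within those cells alone Flt3 was at 53.9 CPM in control, 17.8 in deleted and 43.7 in SI.

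Late neutrophil granule genes were sparse in the members. Summed over the list they gave 335, 342 and 457 CPM, against 1700, 1884 and 2953 in Cebpe-positive cells, and Ltf and Ngp were at 0 in deleted members. Of 7 compared, 2 were higher and 1 lower in deleted (median -0.07) and 1 was higher in SI (median 0.01). The shares of all compared genes were 0.47%, 1.16% and 0.563%. S100a8, a calcium-binding protein of neutrophils and monocytes, was at 15.7, 34.8 and 80.7 CPM, with 51.1% of the control, 77.9% of the deleted and 51.4% of the SI UMIs in 10 cells. After thinning, an S100a8 UMI was found in 3.83% of control, 7.87% of deleted and 12.7% of SI members, against 0.962% of control and 2.40% of SI Klf1-high cells, in which its level was 8.59 and 70.5 CPM. S100a9, its partner, was at 18.4, 1.79 and 11.5 CPM, but 82.4% of the control UMIs lay in 10 cells, and a UMI was found in 5.86% of control, 3.11% of deleted and 9.86% of SI members at full depth. By the share of cells SI was thus above control for S100a9, and by CPM below it. Chil3, a chitinase-like protein, was at 12.4, 63.2 and 5.81 CPM, but 98.8% of the deleted UMIs came from 10 of 225 cells.

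Transcripts of the erythroid lineage, which belong to another cell type, were among the lowest ratios in deleted members. Of 8 compared erythroid genes, 6 were lower and 1 higher in deleted (median -4.20), and 3 were lower in SI (median -0.89). The shares of all compared genes were 1.16%, 0.47% and 0.258%. Car1, a carbonic anhydrase of red-cell precursors (chromosome 3, 14766216 to 14808368, minus strand, in GRCm38), was at 353 CPM in control, 1.53 in deleted and 165 in SI. Car2, at its neighbouring locus (14886273 to 14900770, plus strand), was at 138, 4.35 and 46.6. Gata1, the erythroid and megakaryocyte factor, was at 22.7 CPM in control and 9.91 in SI and had no UMI in deleted members, which makes it at least 29.6-fold lower there when 3 counts over the group are taken as the floor. Slc25a21, a mitochondrial carrier, and Ermap, an erythroid membrane protein, also had no deleted UMI and were at least 43.2-fold and 26.8-fold lower. Tfrc, the transferrin receptor of dividing cells, was the gene that was higher, at 33.3, 71.1 and 44.6 CPM.

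Klf1-high cells, with at least 5 Klf1 UMIs, under 5 Mpo UMIs and under 5 Cd79a UMIs, were 937 of the kept barcodes in control, 24 in deleted and 417 in SI, so their number moved with these values. The Mpo and Cd79a limits may also lower the levels of other myeloid and B-lineage genes in Klf1-high cells. In those cells Car1 was at 4484, 5513 and 4646 CPM. A Car1 UMI was found in 415 of the 1638 control members (25.3%) and in 6 of the 225 deleted members, and Cebpe-positive cells showed the same order of libraries, at 426, 8.83 and 110 CPM. Without the members of doublet score above 0.25, the log2 ratios to control in deleted were -4.67 for Car1, -2.81 for Car2, -2.66 for Gata1, -2.07 for Klf1, -3.29 for Slc25a21 (-5.09 with them) and -2.04 for Ermap (-4.43 with them). The part of doublets and free RNA in the remainder was not tested. The platelet chemokine Pf4 followed the same order, at 27.5, 0.512 and 6.22 CPM, as did Apoe at 86.7, 10.5 and 37.3, whose SI log2 ratio of -1.20 became -0.24 without high-scoring cells.

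Of the mast and basophil genes, Cpa3 was higher in SI members than in both other libraries. The whole list summed to 1707 CPM in control, 1798 in deleted and 1790.5 in SI, a sum that includes Srgn, which is also in the primary granule list. Of 6 compared genes, 2 were lower in deleted (median -0.20) and 1 was higher in SI (median 0.55). The shares of all compared genes were 1.16% and 0.563%. Cpa3, carboxypeptidase A3 of mast cells (chromosome 3, 20215620 to 20242181, minus strand), was at 18.6 CPM in control, 1.28 in deleted and 105 in SI, a ratio of 5.67 (5.11 to 6.3) in SI and 0.0688 (0.0223 to 0.162) in deleted. It was spread over many SI members, 30% of which had a UMI. After thinning, a Cpa3 UMI was found in 18.8% of SI members (15.9 to 21.9) and 4.46% of control members, against 10.6% and 2.56% in Klf1-high cells, 43.0% and 24.1% in Cebpe-positive cells and 58.8% and 32.3% in F13a1-low cells. In every one of these classes the SI library exceeded control, and members lay nearer the Klf1-high level than the other Mpo-high cells did. Within SI members Cpa3 went down with F13a1, from 236 to 87.0 and 41.6 CPM. Control members showed the same order, at 41.7, 17.0 and 10.0 CPM, and deleted members were at 0, 2.04 and 1.37. The histamine-forming enzyme Hdc was at 65.8, 73.9 and 122 CPM and the basophil protease Mcpt8 at 11.1, 15.1 and 20.6. Cells with 3 or more Fcer1a UMIs were excluded by the rule, which limits how high these genes can be.

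Some B-lineage transcripts were higher in deleted members. Of 20 listed genes 5 were compared, with 1 higher in deleted (median 0.07) and 1 lower in SI (median -0.28). Ebf1, a transcription factor that specifies B cells (chromosome 11, 44617317 to 45008091, plus strand), had 1 UMI in control members, 169 in deleted and 1 in SI, or 0.0369, 43.2 and 0.0819 CPM. It is the gene counted as higher, and it reached the level for comparison through the deleted library alone. It was found in 54 of the 225 deleted members, but 10 of those cells held 74.0% of its UMIs and 1 cell held 77 of them. After thinning, an Ebf1 UMI was found in 11.1% of deleted members (7.25 to 16.1), 5.10% of deleted Cebpe-positive cells and 9.57% of deleted F13a1-low cells. It was found in 0 of 24 deleted Klf1-high cells, which allows a share of up to 14.2%. The intervals overlap, so the members' share cannot be told from that of the Klf1-high cells at this number of cells. The part of free RNA and doublets in the Ebf1 counts was not tested. The Cd79a-high cells that make up most of the deleted library had Ebf1 at 1755 CPM. Restricted to the 156 deleted members without a Cd79a UMI, the log2 ratio of Ebf1 was 4.14 in place of 5.41.

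The whole B list summed to 360 CPM in control, 470 in deleted and 252 in SI members, against 16404 in Cd79a-high deleted cells. Cd79b, a chain of the B-cell receptor complex, was at 47.1, 49.6 and 50.03 CPM. Vpreb1 and Igll1, the surrogate light chain, were at 1.84, 18.4 and 1.72 and at 1.62, 22.8 and 0.491 CPM. Rag1 was at 5.88 CPM in deleted and 0 in the other libraries. After thinning, a Vpreb1 UMI was found in 12.04% of deleted members, 15.7% of deleted F13a1-low cells and 1 of 24 deleted Klf1-high cells (4.17%, 0.105 to 21.1), and an Igll1 UMI in 11.6%, 15.7% and 1 of 24. These shares cannot be told from those of the Klf1-high cells at this number of cells. Foxo1, a factor of B-cell and stem-cell programmes named by its ratio and not by the list, was at 4.94, 20.5 and 4.995 CPM. It was at 941 CPM in Cd79a-high deleted cells and reached the level for comparison through the deleted library alone. In deleted members 10 cells held 40% of its UMIs, against 15.7% in control. Ighm, the mu heavy-chain gene, was at 127, 124 and 51.7 CPM, lowest in SI. No assembled heavy-chain contig was found in the 1638 control members, which allows a share of up to 0.225%, or in the 225 deleted members, which allows up to 1.63%. Of the 700 SI members 1 had one. Of all kept deleted barcodes, 22.7% had a heavy-chain contig. Cd3e, Cd3g and Gzma, markers of T and NK cells, were at 0 in all 3 libraries.

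Cell-cycle genes were at similar levels in the members of the 3 libraries. None of the 20 S-phase genes passed 2-fold, with medians of 0.09 in deleted and -0.02 in SI, and none of the 20 G2/M genes did, with medians of -0.33 and -0.01. All 20 G2/M log2 ratios were below 0 in deleted, from -0.54 to -0.12. Mki67, the proliferation antigen, was at 316, 274 and 301 CPM, Top2a at 331, 280 and 308, and Ube2c, a mitotic ubiquitin-conjugating enzyme, at 214, 147 and 208. In thinned cells the median member had 8 G2/M UMIs in control, 6 in deleted and 8 in SI, and 15 S-phase UMIs in each.

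The genes of the MLL3/4 complex and related H3K4 methyltransferases did not pass 2-fold in the members. Of 18 listed genes 17 were compared, with medians of -0.07 in deleted and 0.06 in SI. Kdm6a, the X-linked H3K27 demethylase of the complex, was at 48.9, 32.7 and 60.7 CPM, and the X-linked demethylase gene Kdm5c at 63.3, 48.1 and 70.3. Both were lowest in the deleted library, whose members lack Xist, so sex and deletion cannot be told apart for them.

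Several interferon-response genes were higher in SI members. Of 10 compared genes, 4 were higher in SI (median 0.54), where 0.563% of all compared genes were so. None passed 2-fold in deleted (median 0.02). Ifi27l2a was at 10.3 CPM in control, 13.3 in deleted and 69.0 in SI, and Irf7, a transcription factor that amplifies the interferon response, at 5.94, 4.09 and 33.0. Both were unevenly spread in SI, where 10 cells held 37.7% of the UMIs of each, against 15.7% and 26.7% in control. The antiviral genes Isg15 and Oasl2 were at 10.2, 12.5 and 40.5 and at 6.53, 6.91 and 22.1. Irf7 and Oasl2 reached the level for comparison only through SI, so their being counted as higher there is not independent of that filter. For all 4 genes control and deleted lay close together and SI stood above them, with ratios to control from 3.39 (2.79 to 4.12) for Oasl2 to 6.69 (5.84 to 7.68) for Ifi27l2a. An Irf7 UMI was present in 6.23% of control, 5.33% of deleted and 20.6% of SI members. Other cells of the SI library were also above control. Irf7 was at 51.1 CPM in SI and 12.6 in control F13a1-low cells, and at 93.8 and 18.1 in Klf1-high cells. The whole list summed to 773 CPM in control and 1234 in SI members, and to 411 and 1289 in Klf1-high cells. Other members of the list moved less, as with Bst2 at 179, 189 and 254 CPM. Ms4a4c, named by its ratio and not by the list, was at 11.1, 18.2 and 47.3 CPM.

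Most heat-shock and metallothionein genes, which respond to stress and handling, lay within 2-fold of control. Of 10 compared, 3 were higher in deleted (median 0.16) and 2 in SI (median -0.09), and none was lower in either. The shares of all compared genes that were higher were 0.47% and 0.563%. Hspa1a and Hspa1b encode nearly identical HSP70 proteins, and how the counting divided reads between them is uncertain. They were at 5.82, 15.9 and 28.3 CPM and at 8.81, 18.7 and 32.0. Mt1, a metal-binding protein, was at 295, 614 and 244. The constitutive chaperone Hspa8 was at 1834, 1700 and 1566 CPM, highest in control. The induced pair and the constitutive gene thus had opposite orders.

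Genes listed from earlier results as differing throughout a library ranked among the highest and lowest ratios in the members too. Not all of them differed in Klf1-high cells. The list of 9 compared genes was drawn from these same data, so its counts of 4 higher and 1 lower in deleted and 2 higher and 5 lower in SI are not independent. Def8, a regulator of lysosome positioning (chromosome 8, 123423527 to 123463270, plus strand), was at 46.3 CPM in control, 998 in deleted and 43.2 in SI, a ratio of 21.6 (20.2 to 23). A Def8 UMI was found in 94.2% of deleted members, and after thinning in 84.3% of deleted members, 88.3% of deleted Cebpe-positive cells and 62.5% of deleted Klf1-high cells. Cep85, a centrosomal protein (chromosome 4, 134129858 to 134187112, minus strand), was at 40.1, 333 and 196 CPM, and Zfp981, one of a family of similar zinc-finger genes on chromosome 4, at 0.111, 17.9 and 17.9. Tpm3-rs7, whose sequence resembles Tpm3, was at 55.4, 2.05 and 2.13 CPM. For these 3 genes both mutants lay on the same side of control, and both ratios use the same control library. In Klf1-high cells, of which deleted held only 24, Cep85 was at 34.5, 32.8 and 39.3 CPM and Zfp981 at 0.0425, 0 and 0.369. Tpm3-rs7 was at 34.8, 2.53 and 1.02 CPM in them. The counts of Zfp981 and Tpm3-rs7 are uncertain, since similar copies could have taken or lent reads.

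In SI, Rgcc, a regulator of the cell cycle (chromosome 14, 79288756 to 79301645, minus strand), was at 114 CPM in control, 96.5 in deleted and 3.85 in SI, a ratio of 0.0336 (0.0247 to 0.0449). In Klf1-high cells Rgcc was at 33.5, 2.53 and 21.3 CPM. Dmkn was at 66.6, 106 and 21.6 CPM and Hmga2, a chromatin protein of fetal and proliferating cells, at 9.44, 23.3 and 3.36. For both genes deleted was highest and SI lowest, but 60.4% of the deleted Hmga2 UMIs came from 10 cells, against 13.3% of the control ones. Serpina3g, a serine protease inhibitor of a multigene family, was at 30.8, 25.8 and 12.7 CPM. Cnbd2 was at 6.60, 21.0 and 47.1 CPM, above control in both mutants.

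The remaining genes with the highest ratios in deleted were low in level. Prom1, the stem-cell surface antigen CD133, was at 5.53, 20.7 and 7.62 CPM, but 60.5% of its deleted UMIs came from 10 cells. Aff2 was at 15.0, 45.8 and 34.7 CPM, with 70.9% of its deleted UMIs in 10 cells against 18.2% of its control UMIs. Less concentrated were Arfgef3 at 5.31, 18.9 and 6.88 and Chst13 at 11.5, 35.0 and 15.7. So was Rnf43, a ubiquitin ligase of Wnt receptors, at 4.64, 15.1 and 11.96. Their top 10 cells held 31.1%, 24.1% and 42.4% of the deleted UMIs, against 15.3%, 9.62% and 16.7% of the control ones. Prom1 and Arfgef3 reached the level for comparison through the deleted library alone, and Rnf43 through the mutants. Among the lowest, Ctla2a, a protease-inhibitor-like gene, was at 34.2, 1.28 and 29.0 CPM and Ces2g, a carboxylesterase, at 35.8, 1.02 and 19.1. Ces2g was at 401 CPM in control Klf1-high cells, and its deleted log2 ratio went from -4.18 to -1.62 without high-scoring members. Of the 40 genes higher in deleted members, 7 were more than 2-fold higher still in Cd79a-high cells of that library, as were 34 of the 99 lower genes and 7.17% of all compared genes. The members' level enters both the call and this comparison, so these shares are not independent of the calls. Gata1, for one, is counted with 0 CPM in deleted members and 1.05 in Cd79a-high cells.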

How the data were processed

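Each library's gene by barcode matrix was deposited by the authors as whole UMI counts, not normalized, with assembled immunoglobulin contig tables beside it. Per the file headers, the deposited counts come from Cell Ranger 7.1.0, and the build was mm10, per the submitters' processing notes. The B220lo library was not compared. Members and gene lists were chosen with earlier results of these data known. Counts were summed over the members of a library and expressed as CPM, and genes with a mean of at least 10 CPM were compared as log2 ratios with 1 CPM added, a step tested on simulated data. Named genes were the 10 highest and 10 lowest ratios per comparison with at least 50 UMIs in the higher library, without immunoglobulin, mitochondrial, ribosomal, sex-linked marker, unnamed and rule genes. For deleted, a further 10 highest were taken among genes not above 2-fold in its Cd79a-high cells. Genes of the 18 lists could also be named. Shares carry Clopper-Pearson intervals, levels Poisson intervals and ratios of CPM conditional binomial intervals. Log2 ratios carry normal-approximation intervals. Doublets were kept. Scrublet, run through scanpy 1.11.5 with an expected rate of 8%, called 1166 control barcodes, 0 deleted and 1 SI at its own threshold and so did not work in the mutants, and a score above 0.25 was an alternative. Positions came from GENCODE M21 on GRCm38, which held 32235 of the 32285 genes. Python 3.11.15, numpy 2.4.6, scipy 1.17.1 and pandas 2.3.3 were used.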

Additional observations from a re-analysis of the deposited data

Results flagged for a closer look

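In the control CD45.2+B220lo library, which none of the comparisons used, 32 of 16329 kept barcodes met the member rule. This is 0.196% (0.134 to 0.277) and lies above the 0.0184% that 3 counts would give. These 32 cells had a median of 18368 UMIs. F13a1 was at 804 CPM in them and Mpo at 13453, within the range of the Kit+ members, and Elane at 8075 lay below it. Ly6c2 at 3892 CPM, Irf8 at 416, Ccr2 at 194, Lyz2 at 3699 and S100a8 at 393 were higher than in members of any Kit+ library. Klf1, Gata1, Car1 and Car2 had no UMI in them. Def8 was at 25.5 CPM and Tpm3-rs7 at 18.7, and Cep85 was at 201 CPM, near the SI members and not the control Kit+ members. Other genes that differed between the Kit+ libraries were also high in these 32 cells. Zfp981 was at 27.2 CPM (15.5 to 44.2), Cnbd2 at 107 (82.3 to 137), Ebf1 at 66.3 (47.1 to 90.6) and the rule gene Cd79a at 34.0 (20.8 to 52.5). Only the Cnbd2 interval lay clear of all Kit+ members. Zfp981 was at 17.9 CPM in members of both mutants, and deleted members had Cd79a at 22.0 and Ebf1 at 43.2 (37.0 to 50.3). The 32 cells were not scored for doublets, and the spread of these UMIs over them was not examined.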

How the results depend on the processing

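No paired analysis was possible because there is 1 library per group. The share of kept barcodes in deleted (log2 ratio to control -3.19) was -2.27 after thinning and -3.72 with Cd79a at 0, and reversed to 0.12 among barcodes with under 5 Cd79a UMIs. Among Mpo-high cells the deleted ratio (0.72) was 0.99 after thinning, 0.90 with F13a1 of at least 4 and 0.42 against members and Cebpe-positive cells only, and the SI ratio (-1.17) was -1.29 and -0.39 under the last 2. Genes higher in deleted (40) numbered 132 after thinning, 19 with 10 CPM added, 214 without the filter on low values, 7 from 50 CPM and 88 with each cell's own CPM averaged. Genes lower in deleted (99) numbered 49 with 10 CPM added, 470 without the filter, 10 from 50 CPM and 65 without genes over 2-fold higher in deleted Cd79a-high cells than in deleted members. Genes higher in SI (48) numbered 24, 170 and 4, and those lower (22) 13, 77 and 9 under the first 3 of these and 14 under the last. The monocyte median in deleted (-0.25) was -0.39 without high doublet scores, -0.49 after thinning, -0.064 from 50 CPM and -0.37 with cell averages, and in SI (0.08) it reversed to -0.062 without high doublet scores. The primary granule median in deleted (0.28) was 0.17, 0.19, 0.33 and 0.085 under these, and 0.24 both without mitochondrial and ribosomal genes and when centred. In SI (0.23) it was 0.18, 0.27, 0.27 and 0.15, then 0.19 and 0.18, and 0.34 with F13a1 of at least 4. The cause of these shifts was not tested. Of 504 values of named genes under the alternatives, 412 moved by less than their interval and 0 reversed. The alternatives without the filter and from 50 CPM leave each gene's ratio as it was, so their values are unmoved by construction. Intervals of genes near 0 in a library are wide, as for Ebf1 (2.58 to 8.25), so staying within them says little. The 4 alternatives with other denominators or without genes higher in other cell classes were chosen after seeing the data.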

Other observations

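Several other genes were lower in deleted members by 2-fold or more, and those given here were singled out after their values were seen. Tgfbi, an extracellular matrix protein made by monocytes, was at 16.6 CPM in control, 2.81 in deleted and 21.7 in SI. The C-type lectins Clec4d and Clec4e were at 24.4, 5.37 and 28.3 and at 13.3, 4.35 and 21.2. The integrin chain Itgal was at 47.6, 14.6 and 48.8. In these 4 genes SI was at or above control. S100a6 and S100a10, calcium-binding proteins, were at 32.7, 4.86 and 22.7 and at 205, 74.2 and 138, and Vamp5, a vesicle protein, at 89.8, 17.1 and 81.4.

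Genes under the level for comparison in the members were also higher in SI. Serpina3i, of a multigene family, had 320 UMIs in 163 SI members and none in control or deleted members, which makes it at least 237-fold higher than control with 3 counts over the group as the floor. After thinning, a Serpina3i UMI was found in 10.5% of SI members, 15.6% of SI Cebpe-positive cells, 33.3% of SI F13a1-low cells and 4.80% of SI Klf1-high cells, and the 32 control B220lo cells that met the rule had it at 15.3 CPM. Cryab, a small heat-shock protein, had 110 UMIs in 79 SI members and none in control or deleted members, at least 81.5-fold higher on the same floor. Scin, an actin-severing protein, was at 4.53, 1.28 and 23.8 CPM and had a UMI in 89 control, 4 deleted and 147 SI members.

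The single SI member with an assembled heavy chain also had a kappa contig, with 14 and 21 UMIs. It had 33 F13a1, 373 Mpo and 0 Cd79a UMIs, and its heavy chain was of the alpha class.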
